A study of Rattus norvegicus with 64 samples.

Results

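Messenger RNA of 10 acetylcholine receptor genes was followed through the first postnatal weeks of the rat entorhinal cortex. They are the 5 genes of the muscarinic receptors (Chrm1 to Chrm5) and 5 genes of nicotinic receptor subunits (Chrna3, Chrna4, Chrna5, Chrna7 and Chrnb2), taken by name from the 17260 genes counted. RNA depleted of ribosomal RNA came from Long Evans rats whose brain was cut into slices and whose layers were dissected under a microscope. The 64 libraries fall into 16 groups: layer II (LII) and the deeper layers (LDeep) of the medial (MEC) and the lateral entorhinal cortex (LEC), each at postnatal day 2 (P2, n = 5), P9 (n = 4), P23 (n = 3) and P45 (n = 4). For the MEC, LDeep stood for layers III to VI, whereas the labels do not say which layers it held in the LEC. The labels name no allele and no agent, give no sex and do not say which libraries came from the same animal. In the study, rats were under isoflurane anesthesia when decapitated. For miRNA samples of the MEC, the study states that a number shared by LII and LDeep marks 1 animal, and for the mRNA libraries no such statement was found. The p-values therefore measure the spread between the libraries of a group, and fits with the replicate number as a block are given where they change a call.

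Acetylcholine reaches the entorhinal cortex mainly along fibres of basal forebrain neurons, and it acts there through both receptor families. Muscarinic receptors are single proteins that signal through G proteins: M1, M3 and M5 (Chrm1, Chrm3, Chrm5) through Gq to phospholipase C, and M2 and M4 (Chrm2, Chrm4) through Gi, which lowers cyclic AMP and opens potassium channels. Nicotinic receptors are ion channels of several subunits. In the cortex, Chrna4 and Chrnb2 encode the subunits of the common high-affinity channel, Chrna5 an accessory subunit that can join them, and Chrna7 a subunit that forms channels on its own, while Chrna3 encodes a subunit best known from autonomic ganglia.

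The receptor genes were read at 3894334 to 11439143 counts per library (median 7569157.5). On these raw totals 1 count stands for 0.0874 to 0.257 CPM (counts scaled to the size of the library). The CPM of genes given below use TMM library sizes, in which the value of 1 count can differ from this. The median per library was between 30 counts (Chrm5) and 634 (Chrm3), and all 10 passed the filter on low counts, as did 12521 genes in all. Markers of layer II were higher in LII for 5 of 5 genes and markers of deep layers lower for 7 of 7 over all ages, with 2 of 5 and 4 of 7 called at P2 and 3 of 5 and 6 of 7 in the LEC. With the replicate number as a block, layer II markers at P2 were higher in LII for 2 of 5 and lower for 1. At the same time, 5 libraries correlated with the rest of their group at an r below 0.96 (0.906 to 0.951), against 0.971 or more in the other 59. They are numbers 1 and 3 of MEC LII at P2, numbers 1 and 4 of MEC LDeep at P2, and number 4 of LEC LDeep at P45. In MEC LII P2 number 1 the summed level of 5 glutamatergic markers was 135 CPM, compared with 648.1 to 818.2 in its group, that of 8 GABAergic markers was 1364 against 250.8 to 637.9, and that of 5 layer II markers 760.6 against 1131 to 1659. MEC LDeep P2 number 1 held 1068 CPM of 8 meningeal genes, where its group held 48.16 to 87.78, together with 918.2 CPM of layer II markers against 382.2 to 569.9, 474.2 of deep-layer markers against 682.5 to 1238 and 876.7 of astrocyte markers against 520.7 to 566.8, so that its layer markers went against its LDeep label. LEC LDeep P45 number 4 held 1633 CPM of layer II markers against 641.2 to 917. Calls that changed without these libraries are given with and without them.

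The sequence in front of 3 nicotinic genes is shown. Over both regions, Chrna5 and Chrna4 had the largest layer differences among the nicotinic genes followed, and Chrna3 had the largest age difference. Chrna5 and Chrna3 lie tail to tail on chromosome 8 of build rn6, Chrna5 on the plus strand at 59561817 to 59590172 and Chrna3 on the minus strand at 59594007 to 59607122, with 3834 bases between them. Chrna4 lies on the minus strand of chromosome 3 at 176533182 to 176547965. Each was counted over 6 exons, and no exon of the 10 genes overlapped an exon of another gene. The promoters are 300 bases of RefSeq on the newer build GRCr8, from 250 bases before the start of transcription to 50 after it, and read 5′ to 3′ on the strand of the gene. Capitals mark the GC box GGGCGG or its reverse complement CCGCCC. They stand at chr8:64265629-64265928 (plus strand) for Chrna5, chr3:188534477-188534776 (minus strand) for Chrna4 and chr8:64311202-64311501 (minus strand) for Chrna3.
Chrna5: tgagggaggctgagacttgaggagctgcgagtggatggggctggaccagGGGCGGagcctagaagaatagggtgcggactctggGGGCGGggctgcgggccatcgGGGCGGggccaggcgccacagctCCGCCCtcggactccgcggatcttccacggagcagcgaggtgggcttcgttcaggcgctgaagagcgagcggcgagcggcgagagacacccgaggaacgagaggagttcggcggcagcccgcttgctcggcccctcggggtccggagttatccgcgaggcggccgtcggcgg
Chrna4: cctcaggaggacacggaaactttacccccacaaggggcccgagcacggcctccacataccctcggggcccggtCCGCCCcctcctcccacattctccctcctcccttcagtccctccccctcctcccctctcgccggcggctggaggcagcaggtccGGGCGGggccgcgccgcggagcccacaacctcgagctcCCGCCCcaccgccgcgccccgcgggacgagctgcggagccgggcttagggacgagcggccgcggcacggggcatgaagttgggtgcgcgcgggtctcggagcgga
Chrna3: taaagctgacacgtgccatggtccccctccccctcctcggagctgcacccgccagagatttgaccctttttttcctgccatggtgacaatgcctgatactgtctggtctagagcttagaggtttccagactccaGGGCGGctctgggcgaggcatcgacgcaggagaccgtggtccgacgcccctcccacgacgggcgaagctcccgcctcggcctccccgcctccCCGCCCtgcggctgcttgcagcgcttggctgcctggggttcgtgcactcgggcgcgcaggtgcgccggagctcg
The Chrna5 promoter holds 4 GC boxes, that of Chrna4 holds 3 and that of Chrna3 holds 2, and 33.06% of 33469 rat promoters of this length hold at least 1. Their G and C content is 71.33%, 74.67% and 66.67%, where the median of all promoters is 51.67%. Of the 9 receptor genes with a promoter in the reference, Chrm1 is the one without a GC box, whereas Chrm4 has 5. The core AGGTGT of T-box sites, searched on both strands, is in none of the 9, and in 13.65% of all promoters.

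Levels per length are compared in TPM, which scale counts to the exon length of a gene and the size of the library. Chrnb2, Chrm1, Chrm3 and Chrna4 were the highest at every age, and Chrm5 was the lowest at P2, P23 and P45. At P2 the median over 20 libraries was 71.34 TPM for Chrnb2, 43.26 for Chrm1, 33.44 for Chrm3, 30.39 for Chrna4, 18.91 for Chrna7, 14.76 for Chrna3, 7.234 for Chrm2, 6.539 for Chrna5, 5.655 for Chrm4 and 2.357 for Chrm5. At P45 the median over 16 libraries was 108.5 TPM for Chrm1, which now stood first, 73.52 for Chrnb2, 41.38 for Chrm3, 33.12 for Chrna4, 26.1 for Chrna7, 18.49 for Chrm4, 7.054 for Chrna5, 4.442 for Chrm2, 3.688 for Chrna3 and 2.83 for Chrm5. Ranges of libraries overlapped between Chrm3 (31.15 to 57.13 TPM) and Chrna4 (14.9 to 67.39), and between Chrm2, Chrna3, Chrna5 and Chrm5, so these neighbours did not stand apart at P45. The counts of Chrm1, Chrna3 and Chrna7 came from models of 1383, 1500 and 1509 bases, the length of a coding sequence, so their TPM may not compare directly with genes whose untranslated ends were also counted.

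The sum over the 5 muscarinic genes had a median of 97.54 TPM at P2, with 134.3 at P9, 173.4 at P23 and 179.8 in the P45 libraries. The sum over the 5 nicotinic genes was 138.7, 155.3, 138.9 and 141.5 TPM at the same ages. Chrm1 made up a median of 47.87% of the muscarinic TPM at P2 and 59.99% at P45. Of the genes followed, nicotinic transcripts were thus the larger pool at P2 and muscarinic transcripts at P45, by median. The libraries overlapped at both ages. Muscarinic sums were 63.7 to 189.3 TPM at P2 and 143.7 to 388.7 at P45, and nicotinic sums 97.21 to 271.6 and 96.67 to 236.1. These sums are descriptions without a test.

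**Figure D1:**
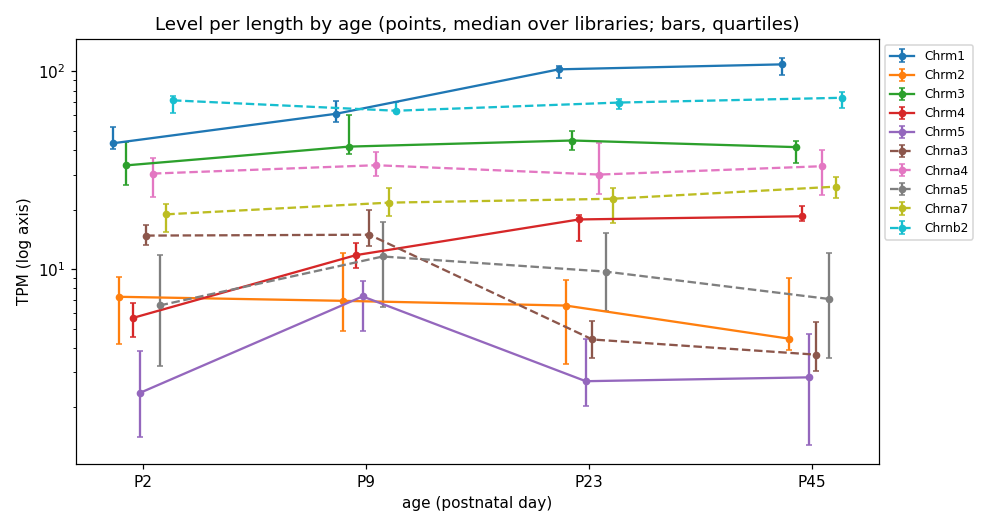
Level per length of the 10 receptor genes by age, as the median TPM over all libraries of an age on a log axis, with quartiles as bars; muscarinic genes have solid and nicotinic genes dashed lines. Chrm1 goes from 43.26 to 108.5 TPM and Chrna3 from 14.76 to 3.688 between P2 and P45, whereas Chrnb2 stays between 63.22 and 73.52.

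Changes with age were measured as the log2 fold change (LFC) of P23/P45 over P2/P9, with regions and layers weighted equally, in edgeR's quasi-likelihood test with BH adjusted p over all 12521 genes, with 0.05 as the threshold for a call. Of the 10 genes, 5 were up-regulated and 2 down-regulated at the older ages. Changes with age were the rule in this tissue, since 81.6% of all genes were called, so the 7 of 10 are no sign of anything particular to the receptors. The median LFC was 0.081 over the receptor genes and 0.006 over all genes. In whole tissue, fewer cells of a type and less RNA per cell cannot be told apart.

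Among the muscarinic genes, Chrm4 and Chrm1 had the largest increases. Chrm4, a Gi-coupled receptor that lowers transmitter release, had 3.81 to 12.7 CPM (median 7.555) in the 20 libraries at P2, 7.1 to 22.3 (16.3) in 16 at P9, 18.6 to 35.3 (25.55) in 12 at P23 and 23.4 to 48.8 (28.6) in 16 at P45. In each region and layer every older library was above every younger one. The LFC was 1.31 (SE 0.09, adjusted p = 1.6e-19), or 2.47-fold. Chrm1, the main Gq-coupled receptor of cortical pyramidal cells, had 0 to 71.7 CPM (30.95) at P2, 29.7 to 56.4 (43.2) at P9, 65.8 to 111 (76.25) at P23 and 63.5 to 196 (80.55) at P45. Here too older and younger libraries did not overlap in any region and layer, and the LFC was 1.19 (SE 0.14, adjusted p = 1.9e-11), or 2.28-fold. The lowest value, 0 counts among 9512750, was in MEC LII P2 number 1 and the highest in LEC LDeep P45 number 4. Without the 5 libraries that stand apart the LFC of Chrm1 was 1.09 (adjusted p = 4.1e-23). Both genes rose between P2 and P9 (LFC 1.04 for Chrm4, SE 0.12, adjusted p = 1.9e-10, and 0.51 for Chrm1, SE 0.18, adjusted p = 0.013), and again between P9 and P23 (LFC 0.66, SE 0.13, adjusted p = 1.7e-05, and 0.85, SE 0.20, adjusted p = 0.00027). The first step of Chrm1 had an adjusted p of 0.053 without P2 number 3.

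Chrm3, a Gq-coupled receptor also known from glands and smooth muscle, changed less. Its medians were 65.85 CPM at P2, then 89.4 at P9, 99.75 at P23 and 91.95 in the P45 libraries, and older and younger libraries overlapped in every region and layer. It rose between P2 and P9 by an LFC of 0.47 (SE 0.11, adjusted p = 0.00029). Over the younger and older ages the LFC was 0.23 (SE 0.08, adjusted p = 0.011), with an adjusted p of up to 0.09 where P23 number 2 or P45 number 4 was left out, and of 0.084 on the counts summed per replicate number. Chrm2, the Gi-coupled receptor often found on axon terminals and interneurons, had medians of 7.265, 7.69, 7.73 and 5.16 CPM at the 4 ages and an LFC of -0.37 (SE 0.18, adjusted p = 0.054), which DESeq2 and limma voom called (adjusted p = 0.046 and 0.037). Without MEC LII P2 number 1, which had 39.5 CPM, it was -0.20 (adjusted p = 0.16), and in MEC LII it was then -0.01 (adjusted p = 0.97). With a replicate number left out, the LFC of Chrm2 ranged from -0.50 to -0.25, the latter without P2 number 1.

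Chrm5, the rarest of the muscarinic genes and one known from midbrain dopamine neurons, took different courses in the 2 regions. In MEC LDeep it was at 18.4, 3.07, 1.62, 3.16 and 2.92 CPM (P2), 14.3, 8.63, 18.7 and 11.5 (P9), 1.11, 0.69 and 0.912 (P23), and 0.749, 1.6, 1.16 and 1.08 (P45). All 7 older libraries were below all 9 younger ones, though narrowly, at up to 1.6 CPM against 1.62 or more. In LEC LDeep it was at 1.01, 0.693, 4.56, 1.29 and 1.71 CPM (P2), 5.08, 4.32, 7.47 and 1.02 (P9), 5.61, 3.3 and 4.09 (P23), and 6.45, 4.24, 6.18 and 2.06 (P45), with overlap between ages. At P9 every MEC LDeep library was above every LEC LDeep library, and at P23 and P45 every one was below. In LII of the MEC the libraries had 4.5, 1.25, 18, 4.5 and 5.85 CPM (P2), 10.7, 5.73, 5.91 and 13.1 (P9), 3.21, 5.14 and 3.86 (P23), and 2.85, 4.82, 3.2 and 1.51 (P45). In LII of the LEC they had 1.89, 4.01, 2.26, 2.08 and 2.82 CPM (P2), 9.41, 8.89, 8.83 and 4.25 (P9), 7.46, 3.24 and 7.11 (P23), and 8.34, 6.2, 9.73 and 4.48 (P45). The median at P9 lay above that at P2 in all 4 places. In LII the MEC and LEC ranges overlapped at P23 and at P45.

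Over all places Chrm5 rose from P2 to P9 (LFC 1.10, SE 0.26, adjusted p = 0.00022) and fell from P9 to P23 (LFC -1.36, SE 0.31, adjusted p = 0.00014). Between younger and older ages its LFC was -0.76 (SE 0.21, adjusted p = 0.00087), and -0.50 (adjusted p = 0.0046) without the 5 libraries that stand apart. It fell in MEC LDeep (LFC -3.10, SE 0.46, adjusted p = 5.6e-08), an 8.56-fold decrease, and in MEC LII (LFC -1.13, SE 0.40, adjusted p = 0.011). Without those libraries these were -2.48 (adjusted p = 8.1e-08) and -0.77 (adjusted p = 0.025). In the LEC the LFC was 0.52 in LII (SE 0.40, adjusted p = 0.25) and 0.66 in LDeep (SE 0.40, adjusted p = 0.15), the latter 0.77 with an adjusted p of 0.024 without those libraries. The test of the difference itself, the MEC minus LEC difference at P23/P45 less that at P2/P9, gave -2.70 (SE 0.41, adjusted p = 1.8e-05), and between -2.87 and -2.38 with any replicate number left out. The fit without the 5 libraries that stand apart was not among those that gave this range, and in it both MEC decreases were smaller. Its LFC between younger and older ages were -0.77 in MEC LII and -2.48 in MEC LDeep, and 0.47 in LEC LII and 0.77 in LEC LDeep. Such a change of the regional difference with age was called for 4.38% of all genes and for 2 of the 10 receptor genes. Oligodendrocyte markers moved in the same contrast, higher for 4 of 6 genes, and their part in the Chrm5 result was not tested. Chrm5 was read at 5 to 190 counts per library, which limits single values.

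Of the 5 nicotinic receptor genes followed, Chrna3 was the 1 that fell between younger and older ages. It had 0.3 to 14.8 CPM (median 10.8) at P2 and 7.6 to 16.8 (12.2) at P9, but 1.25 to 5.58 (3.885) at P23 and 0.895 to 5.61 (2.985) at P45. Younger and older libraries did not overlap in 3 of 4 places, the exception being MEC LII, where MEC LII P2 number 1 had 0.3 CPM and the other 4 libraries of its group 10.1 to 14.4. The LFC was -1.72 (SE 0.15, adjusted p = 1.4e-15), a 3.30-fold decrease, and it was called in each place, at -1.44 (MEC LII), -2.22 (MEC LDeep), -1.40 (LEC LII) and -1.83 (LEC LDeep). The fall lay between P9 and P23 (LFC -1.77, SE 0.22, adjusted p = 7.7e-10), with an LFC of 0.21 (SE 0.18, adjusted p = 0.29) before it and -0.12 (SE 0.23, adjusted p = 0.88) after it.

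Chrna7 and Chrnb2 rose slightly. Chrna7 had medians of 13.6, 17.55, 19.1 and 20.85 CPM at P2, P9, P23 and P45 and an LFC of 0.35 (SE 0.07, adjusted p = 1.8e-05). This came with a called LFC in the LEC (0.59, SE 0.15, adjusted p = 0.00041 in LII, and 0.69, SE 0.14, adjusted p = 3.5e-05 in LDeep), while in the MEC it was 0.16 in LII (95% interval -0.12 to 0.44) and -0.04 in LDeep (-0.32 to 0.25). The difference between regions in this change was -0.58 (SE 0.14, adjusted p = 0.0097), with an adjusted p of 0.052 without P23 number 1. Chrnb2, the partner subunit of Chrna4, had the smallest SD of log2 CPM over all 64 libraries (0.21), with medians of 72.05, 71.65, 82.6 and 84.95 CPM and an LFC of 0.20 (SE 0.04, adjusted p = 9.8e-06), and it rose between P9 and P23 (LFC 0.19, SE 0.06, adjusted p = 0.0053).

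Chrna4 and Chrna5 gave no call between younger and older ages, with an LFC of -0.04 (95% interval -0.22 to 0.14) and -0.09 (-0.34 to 0.15). Chrna5 rose between P2 and P9 (LFC 0.55, SE 0.16, adjusted p = 0.003). Its LFC from P23 to P45 was -0.51 (SE 0.19, adjusted p = 0.14), and -0.52 with an adjusted p of 0.016 without the 5 libraries that stand apart. Without the 5 libraries, calls in single places were added for Chrm2 in LEC LII (-0.87, adjusted p = 0.004), Chrm3 in MEC LII (-0.32, adjusted p = 0.021) and MEC LDeep (0.49, adjusted p = 0.00055), and Chrnb2 in MEC LDeep (0.22, adjusted p = 0.012), and so were the steps of Chrna4 from P2 to P9 (0.28, adjusted p = 0.00067) and from P9 to P23 (-0.18, adjusted p = 0.038). In LEC LII Chrna4 was lower at the older ages (LFC -0.49, SE 0.20, adjusted p = 0.027).

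By step, 6 receptor genes changed from P2 to P9, all upward, when 63.4% of all genes were called (on sums per replicate number Chrna7, at an LFC of 0.24, had an adjusted p of 0.081), and 5 from P9 to P23, when 64.6% were. From P23 to P45 edgeR, limma voom and DESeq2 called 0 of the 10, edgeR calling 3.85% of all genes, and 2 (Chrna5 and Chrna7) had an unadjusted p below 0.05. Within places, 4 receptor genes differed between younger and older ages in MEC LII (66.5% of all genes called), 4 in MEC LDeep (66.2%), 6 in LEC LII (62.7%) and 6 in LEC LDeep (64.5%). Cell markers moved with age as well: all 6 oligodendrocyte genes were higher at the older ages with a median LFC of 6.642, as were 4 of 5 astrocyte and 5 of 5 microglia genes, and neuron markers were higher for 6 and lower for 3 of 10. Their part in the receptor values was not tested.

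**Figure D2:**
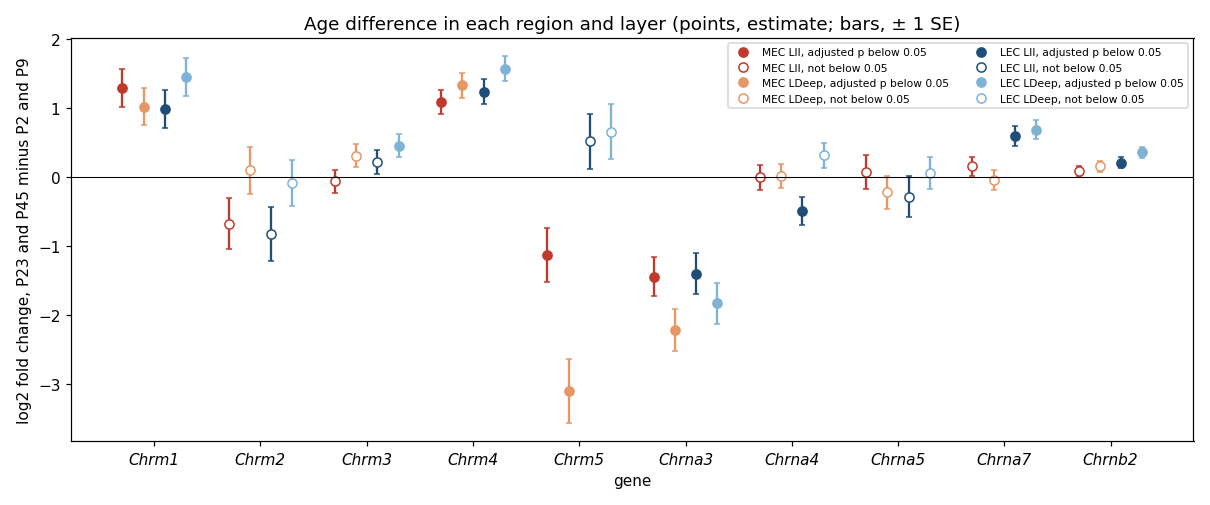
Log2 fold change of P23/P45 over P2/P9 for each receptor gene in MEC LII, MEC LDeep, LEC LII and LEC LDeep, with bars of 1 SE; filled points have an adjusted p below 0.05. Chrm1 and Chrm4 are above 0 and Chrna3 below 0 in all 4 places, whereas Chrm5 is at -3.10 in MEC LDeep and at 0.66 in LEC LDeep.

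Between layers, LFC is that of LII over LDeep with ages and regions weighted equally. The receptor genes with a layer preference were mostly higher in the deep layers: Chrna5, Chrm2, Chrna4 and Chrnb2 were lower in LII and Chrm5 was higher. The 5 calls of 10 stood against 54% of all genes called, and the median LFC was -0.106 over the receptor genes and -0.048 over all genes. What set Chrna5 apart from most genes was size, since the median absolute LFC of called genes was 0.285. Without the 5 libraries that stand apart, 8 of the 10 were called and 62.7% of all genes, the further calls being Chrna3 (LFC 0.31, adjusted p = 0.0068), Chrm4 (0.21, adjusted p = 0.013) and Chrna7 (0.19, adjusted p = 0.01).

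**Figure D3:**
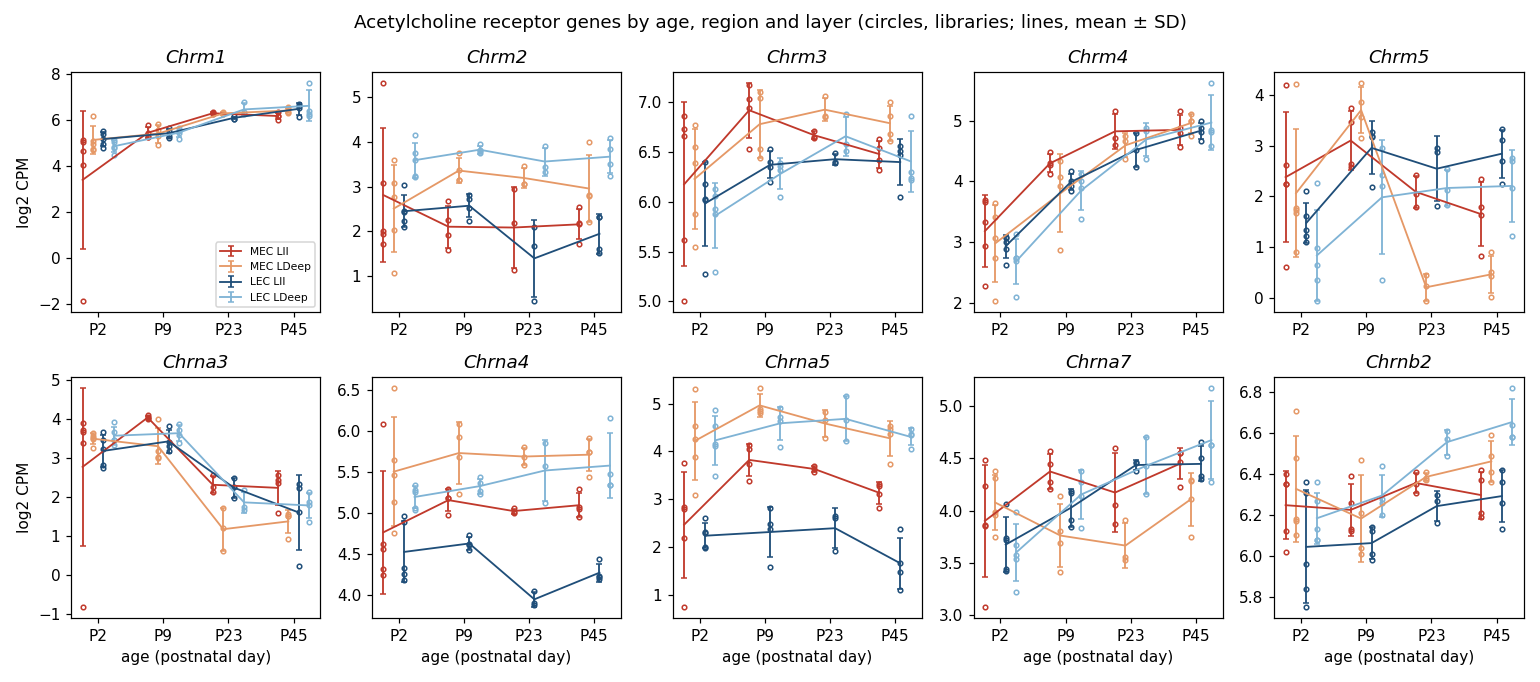
Log2 CPM of the 10 receptor genes at P2, P9, P23 and P45 in MEC LII, MEC LDeep, LEC LII and LEC LDeep, with 1 circle per library and lines for the group mean and SD. For Chrna5 the LEC LII libraries (1.88 to 6.72 CPM) lie below all LEC LDeep libraries (10.9 to 35.4 CPM), and for Chrm5 the MEC LDeep line drops between P9 and P23.

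Chrna5, the accessory subunit, had the largest layer difference of the 10. In LEC LII it was at 4.73, 5.79, 3.65, 3.72 and 4.58 CPM (P2), 2.72, 4.95, 6.72 and 5.27 (P9), 3.48, 5.83 and 6.02 (P23), and 2.53, 4.96, 2.9 and 1.88 (P45). In LEC LDeep it was at 17, 23, 10.9, 28.7 and 17.6 CPM (P2), 24.6, 29.7, 25.9 and 16.8 (P9), 18.3, 25.1 and 35.4 (P23), and 16.3, 20.2, 20 and 21.8 (P45). All 16 LEC LII libraries were thus below all 16 LEC LDeep libraries, whatever their age. In MEC LII it was at 1.4, 4.27, 13.2, 6.91 and 6.7 CPM (P2), 10.1, 16.1, 17.3 and 13.1 (P9), 11.6, 12.1 and 12.6 (P23), and 9.46, 8.37, 6.77 and 9.68 (P45). In MEC LDeep it was at 8.28, 18.9, 14.4, 39 and 23 CPM (P2), 39.8, 28.4, 29.1 and 27.8 (P9), 24.9, 19 and 28.3 (P23), and 22.8, 21.8, 20.4 and 13 (P45). Here the layers overlapped at P2 and at no later age. The overlap came from MEC LII number 3 and MEC LDeep number 1, both among the libraries that stand apart.

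The LFC of Chrna5 was -1.80 (SE 0.13, adjusted p = 1.7e-17), or 3.49-fold lower in LII, and between -1.68 and -1.96 at single ages, each called. It was 5.17-fold lower in LII of the LEC (LFC -2.37, SE 0.19, adjusted p = 1e-14) and 2.36-fold lower in LII of the MEC (LFC -1.24, SE 0.17, adjusted p = 4.4e-08). The 2 layer differences themselves differed by 1.13 (SE 0.25, adjusted p = 0.0079). Such a difference of layer differences was rare, at 1.25% of all genes, and Chrna5 was the 1 receptor gene called. Before adjustment, 6 of the 10 (Chrm2, Chrna3, Chrna4, Chrna5, Chrna7 and Chrnb2) had a p below 0.05. For Chrna5 the difference held with each replicate number left out (1.00 to 1.22, adjusted p at most 0.046). Ordering the 16 groups by mean log2 CPM put the 8 LDeep groups first, then the 4 MEC LII groups and last the 4 LEC LII groups. Neighbours in this order overlapped in CPM, except MEC LII at P23 and at P45.

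Chrna4, which with Chrnb2 forms the high-affinity channel, followed the same layers with a smaller difference. It had 14.6 to 31.2 CPM (median 19.45) in LEC LII and 32.7 to 71.2 (40.2) in LEC LDeep, without overlap, and 18.7 to 67.2 (32.45) in MEC LII and 26.8 to 91.6 (51.05) in MEC LDeep, with overlap at P2 and P9. The LFC was -0.86 (SE 0.09, adjusted p = 2.8e-11), or 1.81-fold lower in LII, with -1.07 (SE 0.14, adjusted p = 3.7e-09) in the LEC and -0.64 (SE 0.13, adjusted p = 6.4e-05) in the MEC. It was -0.65 both at P2 and at P9, then -1.14 (P23) and -0.99 (P45), each called. The change of this difference between younger and older ages was -0.42 (SE 0.19, adjusted p = 0.18), and -0.35 with an adjusted p of 0.019 without the 5 libraries that stand apart. Chrnb2 differed less, with an LFC of -0.16 (SE 0.04, adjusted p = 0.0008), from -0.26 (SE 0.06, adjusted p = 0.00026) in the LEC and -0.06 (95% interval -0.17 to 0.05) in the MEC. In the LEC its layers did not overlap at P9, P23 and P45. The ratio of Chrna5 to Chrna4 in TPM had a median of 0.3681 in LEC LDeep and 0.1507 in LEC LII, and of 0.3164 in MEC LDeep and 0.2049 in MEC LII.

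**Figure D4:**
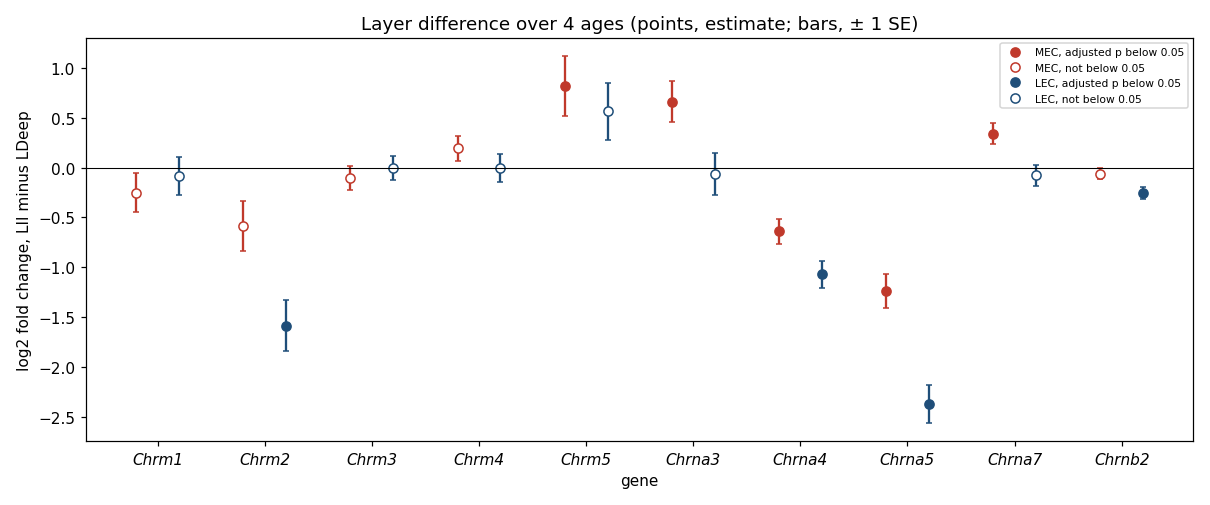
Log2 fold change of LII over LDeep for each receptor gene in the MEC and in the LEC over the 4 ages, with bars of 1 SE; filled points have an adjusted p below 0.05. Chrna5 is the lowest in both regions, at -1.24 in the MEC and -2.37 in the LEC, and Chrna4 is below 0 in both.

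Chrm2 was the muscarinic gene of the deep layers. In LEC LII it was at 4.41, 4.01, 7.99, 5.2 and 5.1 CPM (P2), 6.34, 6.75, 5.46 and 4.46 (P9), 3.98, 2.92 and 1.09 (P23), and 2.78, 4.75, 4.78 and 2.6 (P45). LEC LDeep had 9 to 17.5 CPM (median 13.15), above every LII library. MEC LII had 39.5, 3.56, 8.15, 3.75 and 3.02 CPM at P2, where the value of 39.5 is number 1, the library low in glutamatergic and high in GABAergic markers. MEC LII had 1.93 to 7.4 CPM at the later ages, and MEC LDeep 1.85, 8.18, 3.81, 6.54 and 11.7 at P2 and 4.39 to 15.7 later. The layers overlapped in the MEC at P2 and P45 only.

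The LFC of Chrm2 was -1.09 (SE 0.18, adjusted p = 9.4e-07), or 2.13-fold lower in LII. In the LEC it was -1.59 (SE 0.26, adjusted p = 1.4e-06). In the MEC it was -0.59 (SE 0.25, adjusted p = 0.053), and it was called with the replicate number as a block (-0.69, adjusted p = 0.026) and without MEC LII P2 number 1 (-0.91, adjusted p = 9.7e-05). At P2 it was -0.15 (SE 0.31, adjusted p = 0.78), and -0.81 (adjusted p = 0.014) without that library. At P9, P23 and P45 it was -1.27 (adjusted p = 0.0035), -1.55 (adjusted p = 0.0038) and -1.39 (adjusted p = 0.0023), although the P23 value had an adjusted p of up to 0.072 with P23 number 2 or 3 left out.

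Chrm5 was the receptor gene higher in LII (LFC 0.69, SE 0.21, adjusted p = 0.0041), with 0.82 (SE 0.30, adjusted p = 0.025) in the MEC and 0.56 (SE 0.29, adjusted p = 0.11) in the LEC. By age it was 0.36 at P2 (adjusted p = 0.54), 0.11 at P9 (adjusted p = 0.85), 1.30 at P23 (SE 0.49, adjusted p = 0.043) and 0.99 at P45 (SE 0.42, adjusted p = 0.07). The P23 call was lost in 8 of 16 fits with a replicate number left out, and P45 was at 0.85 (adjusted p = 0.031) without the 5 libraries that stand apart. In the MEC at P9 the mean log2 CPM was lower in LII (3.10) than in LDeep (3.70). Over all ages limma voom gave 0.38 with an adjusted p of 0.13, and the MEC call was lost in 6 of 16 fits with a replicate number left out. Chrna3 and Chrna7 were higher in LII of the MEC (LFC 0.66, SE 0.20, adjusted p = 0.0078, and 0.34, SE 0.10, adjusted p = 0.0057), with -0.07 and -0.08 in the LEC (95% intervals -0.48 to 0.34 and -0.28 to 0.12). limma voom called neither in the MEC (adjusted p = 0.61 and 0.091). For Chrna3 the difference between regions was 0.73 (SE 0.29, adjusted p = 0.26), and 0.80 (adjusted p = 0.019) without MEC LII P2 number 1. For Chrna7 it was 0.42 (SE 0.14, adjusted p = 0.15), and 0.46 (adjusted p = 0.033) without the 5 libraries that stand apart. In MEC LII Chrna3 was at 5.58, 4.44 and 4.12 CPM at P23 and 5.17, 5.61, 4.8 and 2.72 at P45, above 1.25, 2.99 and 2.05 CPM and 2.57, 2.66, 2.58 and 1.62 in MEC LDeep, without overlap at either age.

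Chrm1, Chrm3 and Chrm4 gave no layer call, with an LFC of -0.17 (95% interval -0.43 to 0.10), -0.05 (-0.22 to 0.11) and 0.10 (-0.08 to 0.27). At P2 alone, Chrm3 and Chrm4 were called higher in LII without the 5 libraries that stand apart (LFC 0.50, adjusted p = 0.0014, and 0.62, adjusted p = 0.0037), from 0.09 and 0.21 with them. Calls also added without them were Chrm4 in the MEC (0.37, adjusted p = 0.0033) and, at P23, Chrna3 (0.73, adjusted p = 0.015) and Chrnb2 (-0.21, adjusted p = 0.044). Of the 10 genes, 5 were called between layers in the MEC (40.8% of all genes), 4 in the LEC (38.6%), 2 among P2 libraries (19.2%), 3 at P9 (33%), 4 at P23 (25.9%) and 4 at P45 (26.4%). For a change of the layer difference between younger and older ages, edgeR, limma voom and DESeq2 called 0 of 10, edgeR calling 8.8% of all genes, and 4 (Chrm2, Chrm5, Chrna3 and Chrna4) had an unadjusted p below 0.05. Without those 5 libraries edgeR called Chrm3 (-0.51, adjusted p = 0.0025), Chrm4 (-0.47, adjusted p = 0.027) and Chrna4.

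Other cells than neurons also differed between LII and LDeep. Astrocyte markers were higher in LII for 5 of 5 genes (median LFC 0.8584), endothelial markers for 5 of 5 (0.7782) and meningeal markers for 7 of 8 (3.841), while neuron markers were lower for 7 of 10 and oligodendrocyte markers for 3 of 6. Markers of layer VIb and subplate, 4 of 6 of which were counted, were lower in LII for 4 of 4 (median LFC -2.227). Their sum ranged from 17.69 to 93.46 CPM in LEC LII and from 117.3 to 589.9 in LEC LDeep, and from 11.8 to 337.5 in MEC LII and 258.7 to 1057 in MEC LDeep. By median they were lower in LEC LII than in MEC LII (48.35 against 189.8 CPM), as was Chrna5. In LDeep their range also ran lower in the LEC, whereas Chrna5 had a median of 21 CPM in LEC LDeep and 22.9 in MEC LDeep. With the replicate number as a block, 0 of these 4 markers were called for a layer difference that differed between regions. How far the mix of cells carried the layer differences of the receptor genes was not tested.

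Between regions, Chrm3, Chrna4 and Chrna5 were higher in the MEC, 3 of 10 against 15.4% of all genes. Chrna5 had an LFC of MEC over LEC of 0.64 (SE 0.13, adjusted p = 0.00013), Chrna4 of 0.49 (SE 0.09, adjusted p = 6.8e-05) and Chrm3 of 0.34 (SE 0.09, adjusted p = 0.0027). For the nicotinic pair the call lay in LII, at 1.21 (SE 0.19, adjusted p = 5.9e-06) for Chrna5 and 0.71 (SE 0.14, adjusted p = 0.00012) for Chrna4, where 12.6% of all genes were called and these were the 2 of the 10. MEC LII was above LEC LII without overlap at P9, P23 and P45 for both genes. In LDeep the LFC was 0.08 (95% interval -0.24 to 0.40) for Chrna5 and 0.28 (0.03 to 0.53, adjusted p = 0.24) for Chrna4, the latter 0.29 with an adjusted p of 0.0083 without the 5 libraries that stand apart. In LII, Chrna3 was at 0.35 (SE 0.20, adjusted p = 0.29), and at 0.42 (adjusted p = 0.032) without MEC LII P2 number 1, and Chrm2 in LDeep at -0.59 (SE 0.24, adjusted p = 0.15) and -0.59 (adjusted p = 0.027). Chrm3 had an LFC of 0.39 in LDeep (SE 0.12, adjusted p = 0.04) and of 0.29 in LII (SE 0.12, adjusted p = 0.11), the latter called with the replicate number as a block (0.29, adjusted p = 0.033) and without MEC LII P2 number 1 (0.34, adjusted p = 0.025). The LII and LDeep values of Chrm3 differed by -0.10 (SE 0.17, adjusted p = 0.86). Without the 5 libraries that stand apart Chrm4 was also called in LII (0.33, adjusted p = 0.022). Chrna7 was lower in LDeep of the MEC (LFC -0.32, SE 0.10, adjusted p = 0.049). The 2 calls in LDeep, where 5.78% of all genes were called, were each lost in 11 of 16 fits with a replicate number left out.

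Over the 16 group means of log2 CPM, Chrna4 and Chrna5 had a Pearson r of 0.92 with each other, Chrm2 had 0.72 with Chrna4 and 0.71 with Chrna5, and Chrm1 had 0.83 with Chrm4. The points share libraries and the layer and age differences described, so these values describe the same patterns and are given without a test. Of 11887 genes with a mean of at least 1 CPM, those most like Chrna5 were Galnt14 (r 0.949), Sstr2 (0.939) and Elavl4 (0.927), and those most like Chrna4 were Galnt14 (0.938), Galntl6 (0.918) and Sstr2 (0.913). Chrm2 was closest to Tnn (0.927), Trappc11 (0.92) and Cxxc4 (0.908), Chrm5 to Fkbp11 (0.844), Fam101a (0.819) and Klhl41 (0.77), and Chrnb2 to Hid1 (0.944), Gabbr1 (0.932) and Wdtc1 (0.921). The neighbours Chrna5 and Chrna3, in contrast, had an r of 0.02. The ratio of Chrna5 to Chrna3 in TPM had a median of 0.9428 in MEC LDeep and 0.2585 in MEC LII at P2, and of 4.041 and 0.8278 at P45. In the LEC it was 0.7739 in LDeep and 0.2702 in LII at P2, and 3.061 and 0.487 at P45.

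Most other subunits of nicotinic receptors had few counts. Of 11 listed, 4 passed the filter, of which Chrne had a median of 25 counts per library and the other 3 of 2 to 7, Chrnd had 0 counts in all libraries, and Chrnb4, whose gene follows Chrna3 in the cluster at 3366 bases, had 88 counts in all 64 libraries together. Between ages 2 of the 4 fell and none rose over all places: Chrnb1 (LFC -1.87, SE 0.18, adjusted p = 6.3e-14), a subunit of the muscle receptor, and Chrne (LFC -0.96, SE 0.15, adjusted p = 1.2e-07), its adult partner. Between layers Chrnb3, an accessory subunit, was higher in LII (LFC 4.03, SE 0.57, adjusted p = 4e-08), and 3.45 (adjusted p = 1.6e-08) without the 5 libraries that stand apart. In LII Chrnb3 was higher at the older ages, by an LFC of 4.19 (adjusted p = 6.5e-06) in the LEC and 1.47 (adjusted p = 0.043) in the MEC, the latter 3.45 (adjusted p = 3.9e-07) without those libraries. Over all places its LFC with age was 0.79 (adjusted p = 0.97), and 1.93 (adjusted p = 0.024) on sums per replicate number. It had 6 to 90 counts per library in MEC LII at P45 and 50 to 101 in LEC LII, against 0 to 6 and 0 to 1 in LDeep. Chrna2 was lower in LII (LFC -1.93, SE 0.45, adjusted p = 0.00026) on at most 28 counts per library, and did not pass the filter without those libraries. Among them MEC LII P2 number 3 had 255 counts of Chrna6, 219 of Chrnb3 and 28 of Chrna2, where the other 63 libraries had at most 15, 101 and 18, and it also held the highest LII values of Chrm5 and Chrna4.

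Genes that make, carry and break down acetylcholine changed with age in all 6 tested cases of 7 listed, 4 upward and 2 downward. Chat, the enzyme that makes acetylcholine, rose by an LFC of 3.21 (SE 0.26, adjusted p = 5.9e-16) and Slc18a3, its vesicular transporter, by 1.05 (SE 0.23, adjusted p = 4.4e-05), both from few reads: Chat had 0 to 6 counts per library at P2 and at most 17 at P23. Prima1, the membrane anchor of acetylcholinesterase, rose by 2.21 (SE 0.20, adjusted p = 8.3e-15) while the esterase Ache was lower at the older ages (LFC -0.45, SE 0.09, adjusted p = 9.5e-06), after a rise from P2 to P9 (LFC 1.22, adjusted p = 2.4e-13) and a fall from P9 to P23 (-1.06, adjusted p = 1.1e-09). Between layers 4 were higher in LII, among them Chat (LFC 1.24, SE 0.32, adjusted p = 0.00089), Slc18a3 (0.85) and Prima1 (0.63), and 2 lower, among them Ache (-0.39). The Ache difference was called in the LEC (-0.75, adjusted p = 3.0e-06) and differed between regions by 0.72 (adjusted p = 0.022). Chat (1.63, adjusted p = 0.0012) and Slc18a3 (0.95, adjusted p = 0.011) were called in the MEC and not in the LEC. The Prima1 difference was 1.78 at P2 (adjusted p = 0.00082) and changed with age by -1.53 (adjusted p = 0.0094). Slc5a7, the choline transporter of cholinergic neurons, was lower in the MEC than in the LEC (LFC -1.60, SE 0.12, adjusted p = 3.9e-15). It was the 1 call of 6 between regions over both layers, where 15.4% of all genes were called. At P9 Slc5a7 had 0.83 to 3.33 CPM in MEC LII and 8.30 to 15.39 in LEC LII, and at P45 1.48 to 3.44 and 5.81 to 12.46. Which cells held this RNA was not tested. In LII alone Ache was also called, higher in the MEC (LFC 0.55, adjusted p = 0.0015), where 12.6% of all genes were called.

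Of 10 listed proteins that fold, traffic or modulate nicotinic receptors, 9 were tested. With age 5 rose and 4 fell, led by Lynx1 (LFC 2.64, SE 0.11, adjusted p = 5.2e-28), a brake on nicotinic receptors of the mature cortex, Vsnl1 (1.77), Lypd6b (-1.44) and Ly6e (1.14). Lynx1 rose mainly between P2 and P9 (LFC 3.16, SE 0.16, adjusted p = 1.5e-23). In LII 1 was higher (Lynx1, LFC 0.34, adjusted p = 0.0089, and 0.20 with an adjusted p of 0.07 without the 5 libraries that stand apart) and 4 were lower, among them Lypd6b (-0.68), Tmem35 (-0.37) and Ly6h (-0.31). The layer differences of Lypd6b and Tmem35 changed with age (-1.10, adjusted p = 9.99e-06, and -0.56, adjusted p = 0.002). At P23 and P45 they were -1.24 and -1.23 for Lypd6b and -0.67 and -0.62 for Tmem35. Neither gene was called at P2 or P9. Between regions 3 were higher and 2 lower in the MEC, with Lypd1 (0.37) and Tmem35 (-0.37) the largest. The MEC minus LEC difference of Lypd1 fell with age (-1.67, SE 0.19, adjusted p = 2.1e-08), as it did for Chrm5 and Chrna7.

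Partners of the muscarinic receptors also split. Of 10 genes on the Gq side, 4 rose and 2 fell with age, among them the G protein subunits Gna14 (LFC 2.11, SE 0.12, adjusted p = 3.6e-23) and Gnaq (-0.69, SE 0.04, adjusted p = 5e-24), the potassium channel Kcnq3 (0.55), which M1 closes, and the phospholipase Plcb1 (0.41). Between layers 1 was higher in LII (Plcb3, 0.73) and 5 lower, among them Gna14 (-1.06), Plcb1 (-0.60) and Kcnq3 (-0.30), and between regions 1 (Plcb1, 0.19) was higher in the MEC. Of 9 genes on the Gi side, 5 rose and 4 fell with age, led by the potassium channels Kcnj9 (LFC 1.84, SE 0.09, adjusted p = 3.4e-26) and Kcnj3 (1.62), by Rgs4 (1.56), which ends G protein signals, and by Gnai3 (-1.45). Between layers 2 were higher and 3 lower in LII, none beyond an LFC of -0.45 (Kcnj6), and between regions 1 was higher and 1 lower in the MEC. The shares called with age, between layers and between regions in these lists stand against 81.6%, 54% and 15.4% of all genes. On sums per replicate number the age calls of Lypd1 (LFC 0.07, adjusted p = 0.63), Tmem35 (-0.11, adjusted p = 0.19) and Gnao1 (-0.28, adjusted p = 0.071) were lost, and with the number as a block Ly6e was added between layers (-0.10, adjusted p = 0.031) and Chrna2 (1.28, adjusted p = 0.049) and Gnai1 (-0.12, adjusted p = 0.039) between regions.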

How the data were processed

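Total RNA of 64 entorhinal samples was sequenced after ribosomal depletion, with all libraries run across all lanes. Per the labels, reads were demultiplexed with bcl2fastq 1.8.4, trimmed with Trimmomatic 0.33, mapped to rn6 with STAR 2.4.0 and counted on RefSeq exons with featureCounts of Subread 1.4.6-p1, with strand, and pairs overlapping several genes were counted for each. The deposited values are raw counts per gene, 1 file per library. Groups came from the titles. No 2 libraries of a group held identical counts (chi-square per degree of freedom at least 3.08 over 100 pairs).

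From these counts, R 4.3.3 with edgeR 4.0.16 fitted 1 mean for each of 16 groups to all 64 libraries (TMM library sizes, filterByExpr, quasi-likelihood F test, BH adjusted p, threshold 0.05). CPM use the TMM library sizes, log2 CPM a prior count of 2, and SE is the LFC over the square root of F. Alternatives were limma 3.58.1 voom with TMM and quantile normalization (the method of the study), DESeq2 1.42.0, RLE size factors, no filter, a replicate block, sums per number, fits of single ages, regions or layers, and each replicate number left out. The libraries that stand apart were left out, and ages compared within a region and layer, as alternatives chosen after seeing the data. The receptor genes and lists were chosen with earlier results of these data known. Named were all 10 receptor genes, up to 4 called genes of each list with the largest LFC, and the 3 genes most like each receptor gene called between layers. In simulated counts on 12521 genes, the test recovered 89.6% of 1.5-fold and 98.5% of 2-fold layer differences and called 0.114% of unchanged genes. For the difference of layer differences between regions it recovered 56.7% and 71.6%. The simulated libraries were drawn independently, without deviations shared by replicate number and without libraries that stand apart. These rates may therefore not hold for the real libraries. Promoters were matched by symbol for 9 of 10 genes. No amino acid sequence and no Chrm5 promoter was used here.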

Additional observations from a re-analysis of the deposited data

Results flagged for a closer look

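In 12 of 120 tests of a receptor gene in a group of 4 or 5 libraries, the highest or lowest library stood far from the others of its group, where chance marks about 6. Of these, 8 were in the 5 libraries that stand apart in their whole profile. In MEC LII P2 number 1, Chrm1 was at -1.91 log2 CPM (0 CPM) and Chrna3 at -0.82 log2 CPM (0.3 CPM). In MEC LII P2 number 3, Chrna4 was at 6.08 log2 CPM (67.2 CPM). Chrm5 was at 4.22 log2 CPM (18.4 CPM) in MEC LDeep P2 number 1 and Chrm1 at 6.17 log2 CPM (71.7 CPM) in MEC LDeep P2 number 4. LEC LDeep P45 number 4 was high for Chrm1 at 7.62 log2 CPM (196 CPM), for Chrm3 at 6.86 log2 CPM (116 CPM) and for Chrna4 at 6.16 log2 CPM (71.2 CPM).

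The other 4 were Chrm5 at 2.18 log2 CPM (4.25 CPM) in LEC LII P9 number 4, Chrna3 at 0.92 log2 CPM (1.62 CPM) in MEC LDeep P45 number 4, Chrna4 at 4.44 log2 CPM (21.5 CPM) in LEC LII P45 number 2, and Chrna5 at 5.32 log2 CPM (39.8 CPM) in MEC LDeep P9 number 1.

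Of the tests of a difference between differences, 3 passed for a receptor gene. The layer difference of Chrna5 differed between MEC and LEC by 1.13 (adjusted p = 0.0079). The MEC minus LEC difference changed with age by -2.70 for Chrm5 (adjusted p = 1.8e-05) and by -0.58 for Chrna7 (adjusted p = 0.0097).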

How the results depend on the processing

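No value of a receptor gene that was called turned its direction under any alternative. Among the 11 counts of receptor genes called, limma voom gave 3 between layers in the MEC (5 with edgeR). Without the 5 libraries that stand apart the counts were 1 from P23 to P45 (0 with them), 8 between layers (5), 3 for the layer difference between regions (1) and 3 for its change with age (0), and without MEC LII P2 number 1 the layer difference between regions gave 2. With each replicate number left out in turn that count ranged from 1 to 2, rising without P2 number 1, and the change of the regional difference with age ranged from 1 to 2, falling without P23 number 1. Counts over all genes that moved by over 1.5 times were those from P23 to P45 (482 called, 60 on sums per number, 866 without the 5 libraries, 283 without P23 number 3), for the layer difference between regions (156 called, 286 with the block, 342 without the 5 libraries, 63 at the least with a number left out), for its change with age (1102 and 1887 without the 5 libraries) and for the regional difference with age (548 called, 302 without P23 number 1, 347 without P23 number 3). The cause of these moves was not tested. Fits with libraries left out held fewer libraries, whereas the block and the sums per number used all of them.

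Libraries of an age with the same replicate number deviated together more often than others, but not in every pair: the deviations correlated at a mean r of 0.134 (lowest -0.259, 55 of 96 pairs above 0.1), against -0.043 (59 of 300) for different numbers. With the number as a block, 5 receptor genes were called between layers, 6 in the MEC (Chrm2 at -0.69, adjusted p = 0.026, was added), 4 in the LEC, 3 between regions, 1 for the layer difference between regions, 0 for its change with age and 2 for the regional difference with age. In LII, Chrm3 was added between regions (0.29, adjusted p = 0.033). On sums per number, 6 were called between younger and older ages (Chrm3 was lost, adjusted p = 0.084), 5 from P2 to P9 (Chrna7 was lost, adjusted p = 0.081), 5 from P9 to P23 and 0 from P23 to P45. Neither fit changed another call of a receptor gene. Chrm5, Chrm2 and Chrna3 rest on few counts, which limits how small a difference could be called in them.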
